A study of Mus musculus with 6 samples.

Results

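The cyclin-dependent kinase (CDK) inhibitors were compared between CD34hi and CD34lo fibroblasts of the pubertal mouse mammary gland. They are 7 genes, Cdkn1a, Cdkn1b, Cdkn1c, Cdkn2a, Cdkn2b, Cdkn2c and Cdkn2d, chosen by name from the 27179 genes of the deposited count table, and all 7 had enough counts to be tested. Bulk RNA-seq was performed on both populations, sorted by surface CD34 within a single gate (Lin–CD24–Pdgfrα+), and the cells of both came from the same female FVB/NJ mice (FVB/N in the labels) at 6 weeks of age. There were 3 pools of 2 mice, no treatment or engineered allele is named for them, and the groups are defined by the surface level of CD34 alone. A pool gave 1 CD34lo and 1 CD34hi library, which makes 6 libraries, each an average over pooled animals and over every cell type in its gate. In such bulk samples, fewer cells of a type and less RNA per cell cannot be told apart.

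CDK inhibitors slow or stop entry into the cell cycle. The Cip/Kip proteins p21, p27 and p57, encoded by Cdkn1a, Cdkn1b and Cdkn1c, bind cyclin-CDK complexes and block CDK2 in particular. The INK4 proteins p16, p15, p18 and p19, encoded by Cdkn2a to Cdkn2d, bind CDK4 and CDK6 and keep D-type cyclins from activating them, so that the retinoblastoma protein stays active and holds E2F factors in check. In fibroblasts, p16, p15 and p21 are known for their accumulation in cells that have stopped dividing for good.

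Cdkn2a and Cdkn2b lie side by side on chromosome 4 and had the largest differences of the family, while Cdkn1a was the only member with more RNA in CD34hi cells in every pool. The promoter windows of these 3 genes are shown for that reason, as 300 bases from 250 before a RefSeq start site to 50 after it (GRCm38.p6, 5′ to 3′ on the gene's strand). Capitals mark matches to the GC box GGGCGG, a motif of Sp1-type factors, on either strand, except in the first Cdkn1a window, where they mark a match to the p53 site. Cdkn2a has a pair of start sites 12427 bases apart. The upstream one (window 1) begins the transcript with its own first exon that encodes p19Arf, and the downstream one (window 2) begins the p16 transcript.
Cdkn2a window 1, chr4:89294570-89294869, minus strand: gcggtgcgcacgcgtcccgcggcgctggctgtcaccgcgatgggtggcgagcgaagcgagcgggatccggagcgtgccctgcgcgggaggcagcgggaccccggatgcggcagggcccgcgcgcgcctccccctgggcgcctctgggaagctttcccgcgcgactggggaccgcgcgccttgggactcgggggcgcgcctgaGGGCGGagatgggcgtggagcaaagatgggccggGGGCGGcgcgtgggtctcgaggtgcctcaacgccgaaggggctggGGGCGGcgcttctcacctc
Cdkn2a window 2, chr4:89282143-89282442, minus strand: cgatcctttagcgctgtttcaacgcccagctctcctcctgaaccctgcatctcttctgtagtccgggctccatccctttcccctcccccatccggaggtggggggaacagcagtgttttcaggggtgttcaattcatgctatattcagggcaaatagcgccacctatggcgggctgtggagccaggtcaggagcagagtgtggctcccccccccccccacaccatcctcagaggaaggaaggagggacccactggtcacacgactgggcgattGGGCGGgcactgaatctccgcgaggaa
Cdkn2b window, chr4:89310983-89311282, minus strand: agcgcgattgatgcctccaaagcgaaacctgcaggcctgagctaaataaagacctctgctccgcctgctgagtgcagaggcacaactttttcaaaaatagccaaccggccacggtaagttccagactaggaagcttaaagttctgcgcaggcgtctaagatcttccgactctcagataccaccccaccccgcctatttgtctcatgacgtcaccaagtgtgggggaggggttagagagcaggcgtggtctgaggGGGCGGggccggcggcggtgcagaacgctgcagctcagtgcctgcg
Cdkn1a window 1, chr17:29090729-29091028, plus strand: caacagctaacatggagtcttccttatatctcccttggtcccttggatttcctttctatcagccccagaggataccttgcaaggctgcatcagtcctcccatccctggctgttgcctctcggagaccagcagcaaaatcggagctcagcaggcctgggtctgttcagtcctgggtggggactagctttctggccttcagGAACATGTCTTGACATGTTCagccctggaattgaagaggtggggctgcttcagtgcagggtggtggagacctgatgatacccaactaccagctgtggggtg
Cdkn1a window 2, chr17:29093519-29093818, plus strand: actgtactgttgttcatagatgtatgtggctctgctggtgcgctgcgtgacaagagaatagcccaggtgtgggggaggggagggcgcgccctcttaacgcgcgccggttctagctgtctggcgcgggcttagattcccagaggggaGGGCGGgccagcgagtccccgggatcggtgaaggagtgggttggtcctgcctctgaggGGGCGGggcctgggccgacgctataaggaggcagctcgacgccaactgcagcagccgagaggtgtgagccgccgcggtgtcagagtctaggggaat

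The GC box occurred 3 times in the upstream Cdkn2a window, once in the downstream one, once in the Cdkn2b window and 2 times in the second Cdkn1a window, and the first Cdkn1a window had none. It was present in 35.7% of all 32851 windows of the table, so that a match is common. The upstream Cdkn2a window was 77.0% G and C and the downstream one 60.3%, beside a median of 52.7% over all windows. The first Cdkn1a window held a 20-letter match to the p53 site (a pair of 10-letter half-sites without a spacer) with 1 mismatch, and its first base lay 51 bases before the start site. Such a match stood in 0.0883% of all windows, and the start sites of the 2 Cdkn1a windows were 2790 bases apart. The p53 search was added after the windows had been seen. The other motifs searched on both strands were the E box CACGTG (7.15% of all windows), the E2F sites TTTCGCGC and TTTGGCGC (0.813%), the FOXO site GTAAACA (3.65%), the TATA box TATAAA (13.6%) and the SMAD box GTCTAGAC (0.213%). None of these was in the 5 windows shown. In the remaining windows of the family, Cdkn1b, Cdkn2c and Cdkn2d had GC boxes, and 1 Cdkn2c window had an E box. No reading of these letters as bound sites was made.

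Counts on genes totalled between 28764779 and 52402410 per library, and replicate libraries differed by more than counting noise. A floor of 3 counts per library, chosen as the least amount read as detected, was between 0.0553 and 0.108 CPM (counts scaled to 1e+06 with TMM factors), which covers counting error only. Cd34, the gene of the sorting marker, had 634 ± 158 CPM in CD34lo and 2571 ± 75.2 CPM in CD34hi libraries (SD, n = 3), and the 5 fibroblast markers Dcn, Lum, Pdgfra, Col1a2 and Igfbp5 were at 608 CPM or more in every library. Among them, Lum, Pdgfra and Col1a2 were higher in CD34lo, while Igfbp5 was higher in CD34hi (767 ± 249 and 8404 ± 936 CPM). Of 15219 genes tested, 35.6% differed between the populations at an adjusted p-value under 0.05 (edgeR's quasi-likelihood test, Benjamini-Hochberg adjusted), 18.7% higher in CD34lo and 16.9% higher in CD34hi. Markers of other cell types also moved between the populations. The sum of 5 macrophage markers was 27.3 to 48.6 CPM in CD34lo against 2.57 to 3.20 CPM in CD34hi libraries. Without Fcgr2b, which made up most of it in CD34lo, the sum was 3.78 to 5.20 CPM against 1.95 to 2.93 CPM, Cd68 and Fcgr1 were not called, and C1qa and Cd163 were too low to test. The 2 pericyte markers Rgs5 and Mcam summed to 7.36 to 11.5 CPM against 1.59 to 2.46 CPM, and the 2 keratinocyte markers to 3.60 to 7.12 CPM against 14.3 to 19.9 CPM. The 6 epithelial markers summed to 68.8 to 69.7 CPM against 34.7 to 41.1 CPM, a gap that Acta2 made up almost wholly (33.3 ± 5.04 and 3.24 ± 0.00763 CPM). Without Acta2 the sums were 31.5 to 40.7 CPM and 31.5 to 37.8 CPM. The part of these cells in the results below was not tested.

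Of the 7 CDK inhibitors, 4 were higher in CD34lo fibroblasts (Cdkn1c, Cdkn2a, Cdkn2b and Cdkn2c), none was higher in CD34hi and 3 did not pass the threshold (Cdkn1a, Cdkn1b and Cdkn2d). The share of all tested genes called was 35.6% in either direction and 18.7% in the direction of CD34lo. The ranges of the 3 libraries did not overlap between the populations for the same 4 members, beside 25.3% of all genes without overlap and higher in CD34lo, 24.8% higher in CD34hi and 50.1% in either direction. The median log2 fold change of CD34hi against CD34lo was -0.72 over the 7 members and -0.01 over all genes. When the pool entered the fit as a replicate block, Cdkn1a joined the called genes as higher in CD34hi, which made 5 of 7, while 40.5% of all genes were called in that fit (20.9% higher in CD34lo and 19.6% higher in CD34hi). In all 3 pools the direction was the same for 5 members, and this held for 65.6% of all genes.

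**Figure D1:**
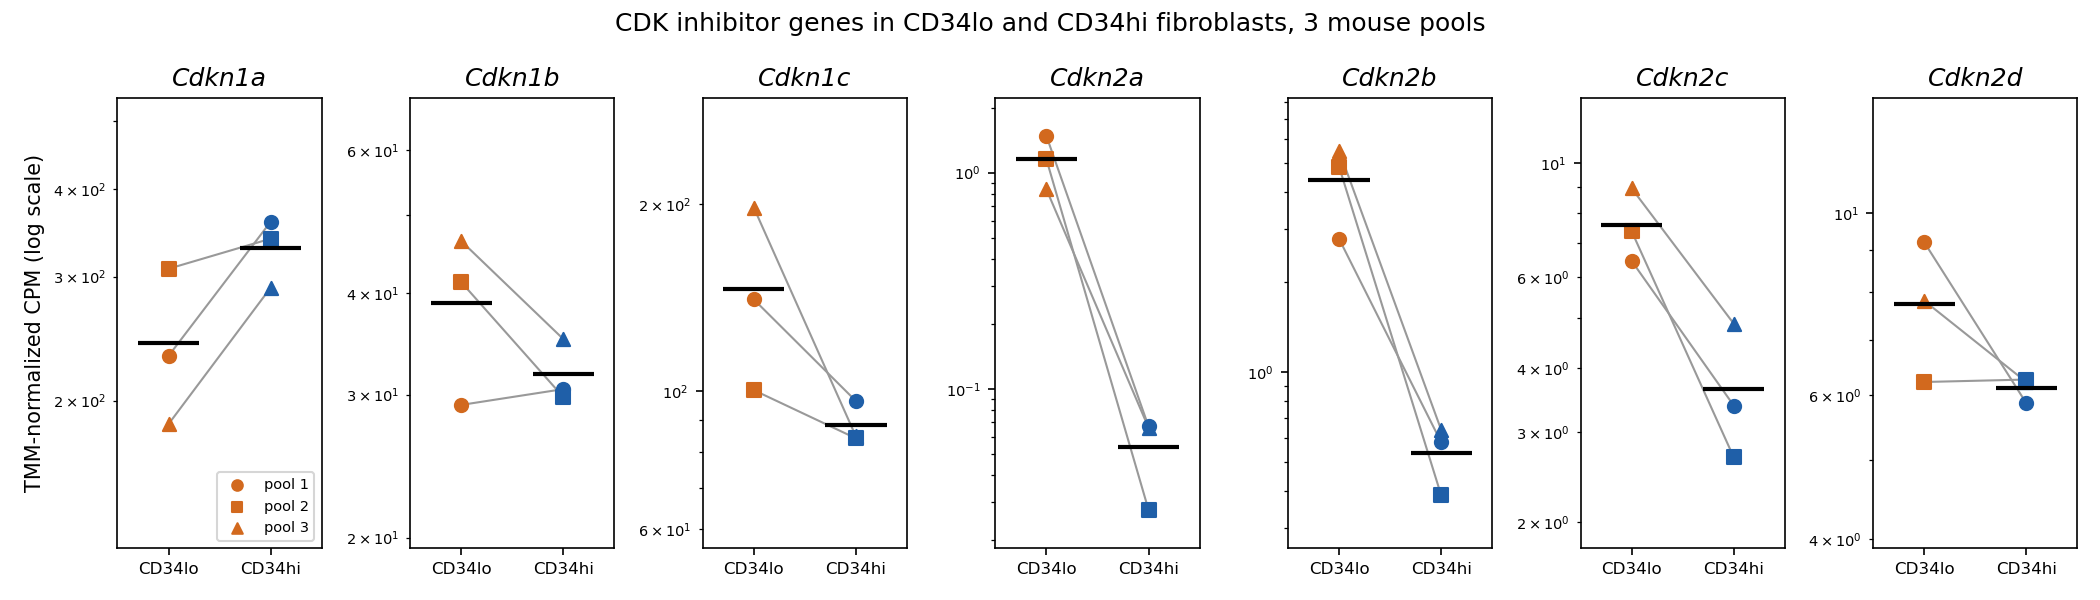
TMM-normalized CPM (log axis, with its own range in each panel) of the 7 CDK inhibitor genes in CD34lo (orange) and CD34hi (blue) libraries. Symbols are mouse pools, grey lines join the 2 libraries of a pool, and black bars are means of 3 libraries; Cdkn2a, Cdkn2b, Cdkn2c and Cdkn1c fall from left to right in every pool, and Cdkn1a rises in every pool.

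Among the Cip/Kip genes, Cdkn1a (gene 12575, chromosome 17, 29090986 to 29100722, plus strand) encodes p21, a target of p53. It had 231, 308 and 185 CPM in the CD34lo libraries of pools 1, 2 and 3, and 359, 340 and 289 CPM in the CD34hi libraries. The CD34hi library was the higher one in each pool, but the highest CD34lo library, that of pool 2, lay above the lowest CD34hi library, so that the ranges overlapped. The means were 241 ± 62.0 and 329 ± 36.0 CPM (SD, n = 3), with a log2 fold change of 0.45 (standard error 0.19, 95% interval 0.01 to 0.88), which did not pass the threshold (adjusted p = 0.101 by edgeR's quasi-likelihood test). With the replicate block it was 0.47 and passed (adjusted p = 0.0234 by the same edgeR test). Without the CD34lo library of pool 2 it was 0.65 (adjusted p = 0.0184 by edgeR). Whether Cdkn1a was called therefore rested on how the pools, and that library, were treated.

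Cdkn1b (gene 12576, chromosome 6, 134920401 to 134925525, plus strand) encodes p27, which is controlled largely through its degradation. Its levels were 29.1, 41.3 and 46.4 CPM in CD34lo and 30.5, 29.8 and 35.1 CPM in CD34hi libraries. Pool 1 had slightly more in CD34hi and the other pools more in CD34lo, and the ranges overlapped. The log2 fold change was -0.29 (standard error 0.17, 95% interval -0.69 to 0.11, adjusted p = 0.233 by edgeR's quasi-likelihood test). Without the CD34lo library of pool 1 it was -0.44 and passed (adjusted p = 0.0407 by edgeR), and without that of pool 3 it was -0.12 (adjusted p = 0.65 by edgeR).

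Cdkn1c (gene 12577, chromosome 7, 143458339 to 143461050, minus strand) encodes p57 and is an imprinted gene, read mainly from the maternal copy. It had 140, 100 and 197 CPM in CD34lo and 96.5, 84.0 and 84.6 CPM in CD34hi libraries. Every CD34lo library was above every CD34hi library, although that of pool 2 only just, and the CD34lo libraries were far more spread (coefficient of variation 33.3%) than the CD34hi libraries (7.93%). The means of 146 ± 48.7 and 88.4 ± 7.01 CPM (SD, n = 3) gave a log2 fold change of -0.72 (standard error 0.22, 95% interval -1.23 to -0.22, adjusted p = 0.0314 by edgeR's quasi-likelihood test), 1.65-fold between the means. Leaving out each pool and each library in turn ended the call in 7 of 9 fits, and only without pool 2 or without its CD34lo library did it stay. The value was -0.42 without pool 3 (adjusted p = 0.146 by edgeR), whose CD34lo library was the highest.

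The INK4 genes had lower levels per length than the Cip/Kip genes, and 3 of 4 were higher in CD34lo, beside 18.7% of all genes. Cdkn2a (gene 12578, chromosome 4, 89274473 to 89294619, minus strand) encodes p16 and, in another reading frame, p19Arf, which stabilizes p53. The table counts the gene as a whole, so the p16 and p19Arf transcripts, whose separate promoters are shown above, could not be told apart. There were 80, 32 and 26 counts (1.48, 1.15 and 0.836 CPM) in the CD34lo libraries and 3, 1 and 3 counts (0.0671, 0.0276 and 0.0662 CPM) in the CD34hi libraries. All CD34hi libraries were thus at or under the floor of 3 counts, and no CD34lo library came near them. Over the populations, 138 counts against 7 gave a ratio of normalized levels of 22.0 (95% interval 10.4 to 55.8, counting error only). The fitted log2 fold change of -4.33 (standard error 0.51, 95% interval -5.49 to -3.16, adjusted p = 0.000265 by edgeR's quasi-likelihood test) depends on the prior count at such low levels.

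Cdkn2b (gene 12579, chromosome 4, 89306289 to 89311032, minus strand) encodes p15, a gene known to be induced by TGF-beta. It had 151, 135 and 171 counts (2.78, 4.86 and 5.50 CPM) in CD34lo and 26, 14 and 29 counts (0.581, 0.386 and 0.640 CPM) in CD34hi libraries. The populations were far apart, and the lowest CD34lo library belonged to pool 1. The means were 4.38 ± 1.42 and 0.536 ± 0.133 CPM (SD, n = 3), and the fitted log2 fold change of -3.00, or 8.03-fold higher in CD34lo (standard error 0.35, 95% interval -3.80 to -2.21, adjusted p = 0.000244 by edgeR's quasi-likelihood test), passed the threshold. Within pools 1, 2 and 3 the CD34lo level was 4.79, 12.6 and 8.60 times the CD34hi level.

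Cdkn2c (gene 12580, chromosome 4, 109660876 to 109665372, minus strand) encodes p18 and lies apart from the first pair on the same chromosome. Its levels were 6.46, 7.37 and 8.94 CPM in CD34lo and 3.38, 2.68 and 4.87 CPM in CD34hi libraries. In both populations pool 3 was the highest, and the ranges did not overlap. The means of 7.59 ± 1.25 and 3.64 ± 1.12 CPM (SD, n = 3) gave a log2 fold change of -1.05 (standard error 0.25, 95% interval -1.62 to -0.49, adjusted p = 0.0106 by edgeR's quasi-likelihood test). Without pool 2, in which the difference was the widest, the log2 fold change was -0.90 and was not called (adjusted p = 0.0667 by edgeR).

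Cdkn2d (gene 12581, chromosome 9, 21288463 to 21291209, minus strand) encodes p19INK4d, another protein than p19Arf. It had 9.20, 6.22 and 7.81 CPM in CD34lo and 5.86, 6.26 and 6.22 CPM in CD34hi libraries. The CD34hi libraries lay close together, and in pool 2 the populations had nearly the same level. The log2 fold change was -0.35 (standard error 0.18, 95% interval -0.76 to 0.07, adjusted p = 0.172 by edgeR's quasi-likelihood test). The interval leaves room for a difference in favour of CD34lo and for none.

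**Figure D2:**
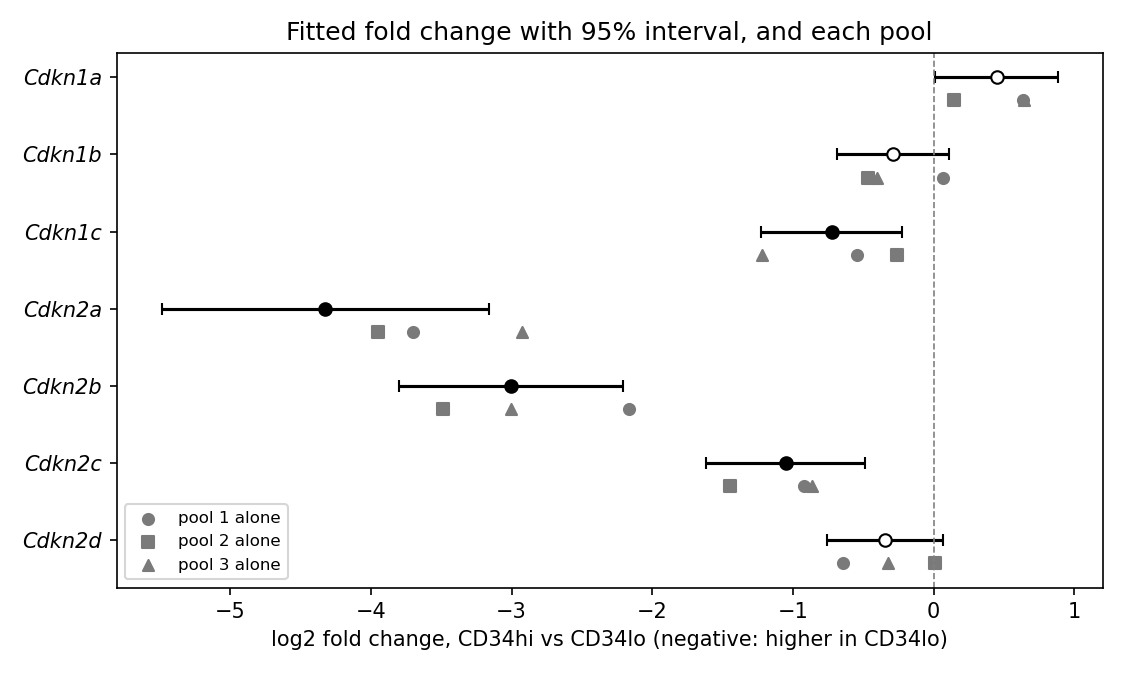
Log2 fold change of CD34hi against CD34lo for each CDK inhibitor (circles, filled where the adjusted p-value is under 0.05, with 95% intervals from edgeR) and the difference within each pool (grey symbols, log2 CPM with a prior count of 2, which pulls low genes such as Cdkn2a towards 0). Negative values mean higher in CD34lo; Cdkn2a and Cdkn2b lie farthest to the left, and Cdkn1a alone lies to the right.

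Per length, as CPM divided by the length of the gene model in kb, levels can be compared between genes. In CD34lo libraries the order was Cdkn1a (119 ± 30.6 CPM per kb; SD, n = 3), Cdkn1c (75.2 ± 25.1), Cdkn1b (16.2 ± 3.68), Cdkn2c (6.86 ± 1.13), Cdkn2d (6.09 ± 1.17), Cdkn2b (3.14 ± 1.02) and Cdkn2a (1.02 ± 0.282). The ranges of Cdkn1a and Cdkn1c overlapped there, as did those of Cdkn2c and Cdkn2d, so these neighbours did not differ beyond their spread. In CD34hi libraries no neighbours overlapped, and the order was Cdkn1a (163 ± 17.8 CPM per kb), Cdkn1c (45.5 ± 3.61), Cdkn1b (13.2 ± 1.21), Cdkn2d (4.81 ± 0.175), Cdkn2c (3.29 ± 1.01), Cdkn2b (0.385 ± 0.0952) and Cdkn2a (0.0472 ± 0.0198). Among all tested genes, the CD34lo level of Cdkn1a was at the 97.0th percentile, that of Cdkn2b at the 39.7th and that of Cdkn2a at the 23.2nd, whereas in CD34hi libraries Cdkn2b was at the 15.4th and Cdkn2a at the 1.78th.

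Summed over the 7 genes, the level per length was nearly the same in both populations, 228 ± 11.3 CPM per kb in CD34lo and 230 ± 18.5 in CD34hi libraries (SD, n = 3). What differed was its make-up. The INK4 sum was 16.4, 16.1 and 18.9 CPM per kb in CD34lo and 8.14, 7.65 and 9.82 in CD34hi libraries, with no overlap, which was 7.52% ± 0.705 and 3.75% ± 0.784 of the total. Without division by length these shares were 4.67% and 2.27%. Cdkn2a and Cdkn2b together made up 24.3% ± 3.96 of the INK4 sum in CD34lo and 5.02% ± 0.979 in CD34hi libraries. Cdkn1a took 53.1%, 64.1% and 39.5% of the family's total in CD34lo and 71.5%, 72.6% and 67.7% in CD34hi libraries. The Cdkn1a level was 1.58, 2.94 and 0.900 times that of Cdkn1c in the CD34lo libraries and 3.57, 3.88 and 3.28 times in the CD34hi libraries, so that only in the CD34lo library of pool 3 did Cdkn1c exceed Cdkn1a. These sums and shares are descriptions without a test.

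**Figure D3:**
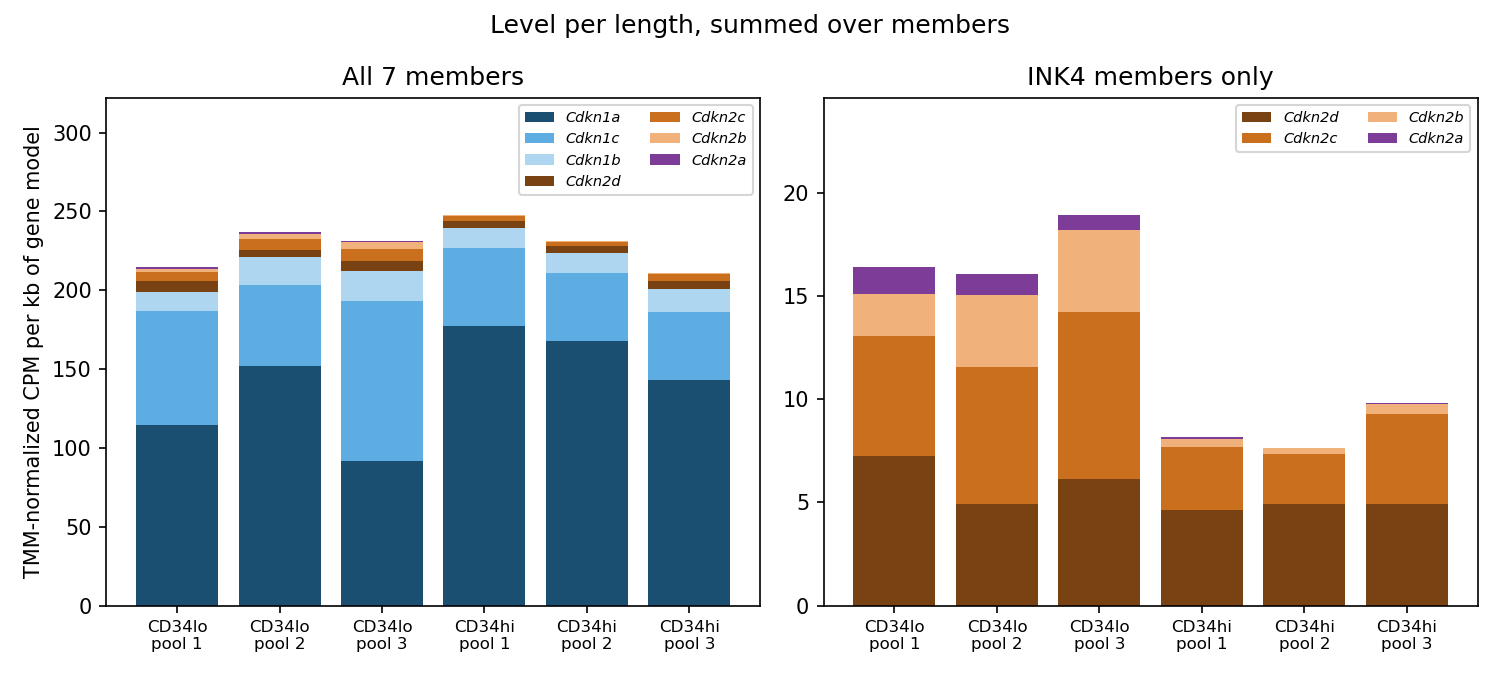
Level per length (TMM-normalized CPM per kb of gene model) of the CDK inhibitors, stacked in each of the 6 libraries, for all 7 genes (left) and for the 4 INK4 genes on their own scale (right). The full bars are of similar height in both populations, while the INK4 bars are 16.1 to 18.9 CPM per kb in CD34lo and 7.65 to 9.82 in CD34hi libraries.

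Next to the members on the chromosome, no gene of the table overlapped any of them. Cdkn2a and Cdkn2b are 11669 bases apart on the same strand and shared their direction. On the far side of Cdkn2a, Mtap, an enzyme of methionine salvage, lay 93382 bases away. Mtap had 20.7 and 17.6 CPM in CD34lo and CD34hi libraries and a log2 fold change of -0.24 (adjusted p = 0.176 by edgeR). On the far side of Cdkn2b, Dmrta1 lay 377165 bases away, with 41 counts in all and a log2 fold change of -2.67 (adjusted p = 0.0265 by edgeR). Its mean was 0.325 CPM in CD34lo and 0.0482 CPM in CD34hi libraries. The CD34hi mean was under the floor of 0.0662 to 0.0828 CPM in those libraries. Beside Cdkn1c, the transporter gene Slc22a18, which belongs to the same imprinted domain, differed in the opposite direction to Cdkn1c, with 1.46 and 7.21 CPM and a log2 fold change of 2.32 (adjusted p = 0.000127 by edgeR). Trp53cor1, a non-coding p53 target beside Cdkn1a, had a log2 fold change of 0.03 (adjusted p = 0.972), Faf1 beside Cdkn2c of -0.15 (adjusted p = 0.408) and Kri1 beside Cdkn2d of 0.09 (adjusted p = 0.707, all by edgeR). Lockd beside Cdkn1b had 48 counts and a log2 fold change of -0.90 (adjusted p = 0.371 by edgeR). The neighbours 2810454H06Rik, Rab44, Kcnq1, 9630013D21Rik and Ap1m2 were too low to test.

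Genes whose log2 CPM followed each member most closely over the 6 libraries were listed by Pearson's r, among the 8872 or 8873 other tested genes with a symbol and a mean log2 CPM of at least 3, as a description. Because the libraries fall into the 2 populations and few points are compared with many genes, values near 1 were reached for every member. The closest were Gli2 (r = 0.999), Scarf2 and Sparc for Cdkn2a, Usp32 (0.999), Shox2 and Meox2 for Cdkn2b, Bbx (0.998), Slf2 and Abca8a for Cdkn2c, and Klc2 (0.992), Capg and Cd276 for Cdkn2d. For the Cip/Kip genes they were Phldb1 (0.995), Htra2 and 4930523C07Rik for Cdkn1a, Slc4a1ap (0.992), Ttc33 and Nbeal1 for Cdkn1b, and Cnot6l (0.993), Ermp1 and Plscr1 for Cdkn1c.

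The partners, targets and regulators of the CDK inhibitors were taken from 12 lists of 123 genes, of which 122 were tested. Of these, 31 were higher in CD34lo, 9 were higher in CD34hi and 82 did not pass the threshold. Among all genes 35.6% were called, 18.7% higher in CD34lo and 16.9% higher in CD34hi. With the replicate block, 38 were higher in CD34lo and 13 in CD34hi, beside 20.9% and 19.6% of all genes (40.5% in either direction). Of the kinases that the INK4 proteins bind, Cdk6 was higher in CD34lo, with 1.58 ± 0.392 CPM against 0.449 ± 0.118 (log2 fold change -1.81, adjusted p = 0.00467 by edgeR), while Cdk4 had 88.6 ± 14.4 and 80.1 ± 9.30 CPM (log2 fold change -0.15, adjusted p = 0.483 by edgeR). Of their cyclins, Ccnd2 had 123, 86.8 and 126 CPM in CD34lo and 45.7, 43.9 and 38.0 CPM in CD34hi libraries (log2 fold change -1.40, adjusted p = 0.000245 by edgeR). Ccnd1 had a log2 fold change of 0.38 (adjusted p = 0.116) and Ccnd3 of 0.03 (adjusted p = 0.896, both by edgeR), a value whose sign changed with the scaling.

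Of the genes that act with CDK2, the main target of the Cip/Kip proteins, 2 of 5 tested were higher in CD34lo and none in CD34hi. Over all genes these shares were 18.7% and 16.9%. They were Ccne1, cyclin E1, with 5.43 ± 1.66 and 1.32 ± 0.0608 CPM (log2 fold change -2.04, adjusted p = 0.000523 by edgeR), and Cdc25a, the phosphatase that activates CDK2 (log2 fold change -0.81, adjusted p = 0.00308 by edgeR), which lost its call in 1 of 9 fits with a pool or library left out (adjusted p = 0.0617 by edgeR). Cdk2 itself had a log2 fold change of -0.16 (adjusted p = 0.369 by edgeR). Among the pocket proteins, Rbl1 (p107) was higher in CD34hi with a log2 fold change of 0.56 (adjusted p = 0.0219 by edgeR), and Rb1 and Rbl2 did not pass with -0.14 and 0.23. The E2F list had 4 of 10 genes higher in CD34hi and 1 higher in CD34lo, beside 16.9% and 18.7% of all genes. E2f7, a repressor of the family, had 2.71, 1.80 and 1.13 CPM in CD34lo and 23.1, 16.9 and 25.0 CPM in CD34hi libraries (log2 fold change 3.49, adjusted p = 5.01e-05 by edgeR), and its partner repressor E2f8 went the other way at very low levels (log2 fold change -2.42, adjusted p = 0.0388 by edgeR). The call of E2f8 was lost in 5 of 9 fits with a pool or library left out, with values from -3.79 to -1.02 (the last without pool 1, adjusted p = 0.397 by edgeR). E2f1, E2f6 and Tfdp1 were also higher in CD34hi, with log2 fold changes of 0.76, 0.54 and 0.50. In the same 9 fits E2f1 kept its call, and Rbl1, E2f6 and Tfdp1 lost theirs in 5, 6 and 5. For the E2F list, the replicate block gave 5 genes higher in CD34hi and 1 in CD34lo, beside 19.6% and 20.9% of all genes.

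**Figure D4:**
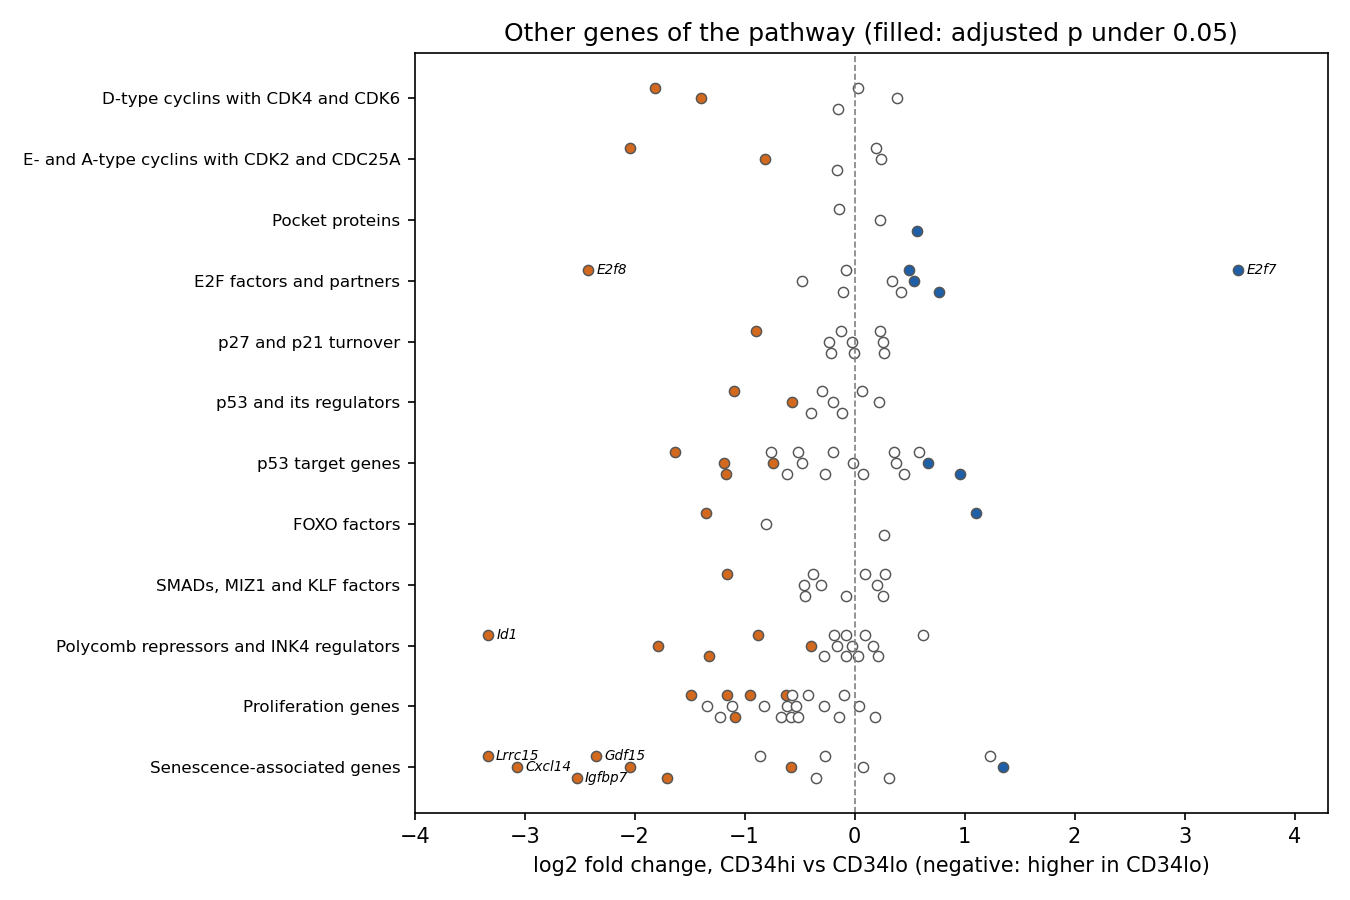
Log2 fold change of CD34hi against CD34lo for 122 tested genes of 12 lists around the CDK inhibitors, 1 row per list. Filled points passed an adjusted p-value of 0.05 (orange higher in CD34lo, blue higher in CD34hi), names mark the called genes farthest from 0, and vertical offsets within a row only separate points; E2f7 lies farthest to the right and Lrrc15 and Id1 farthest to the left.

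Upstream of p21, Trp53 had 36.7 ± 6.94 and 42.7 ± 8.86 CPM (log2 fold change 0.22, adjusted p = 0.411 by edgeR) and its ligase gene Mdm2 139 ± 29.9 and 121 ± 24.9 CPM (log2 fold change -0.20, adjusted p = 0.474 by edgeR). Mdm4, an inhibitor of p53, and Chek1, a checkpoint kinase, were higher in CD34lo (log2 fold changes -0.57 and -1.10), and each lost its call in 6 of 9 fits with a pool or library left out. Of 18 p53 target genes besides Cdkn1a, 4 were higher in CD34lo, 2 were higher in CD34hi and 12 did not pass. Among all genes 35.6% were called, 18.7% higher in CD34lo and 16.9% higher in CD34hi. With the replicate block, 6 target genes were higher in CD34lo and 3 in CD34hi, beside 20.9% and 19.6% of all genes (40.5% in either direction). Those higher in CD34lo without the block were Btg2, an antiproliferative gene with 1878, 1912 and 1912 CPM in CD34lo and 644, 593 and 597 CPM in CD34hi libraries (log2 fold change -1.64, adjusted p = 3.06e-05 by edgeR), Eda2r (-1.19), Plk3 (-1.17) and Phlda3 (-0.74). Zmat3 (0.96) and Ccng1 (0.66) were higher in CD34hi. The FOXO factors, which can activate Cdkn1b, had called genes in both directions, with Foxo1 at 43.7 ± 4.11 and 93.9 ± 10.1 CPM (log2 fold change 1.10, adjusted p = 0.000214 by edgeR) and Foxo3 at 66.3 ± 10.3 and 26.0 ± 5.32 CPM (log2 fold change -1.35, adjusted p = 0.000449 by edgeR). Foxo4 and Foxo6 did not pass (0.26 and -0.80). Of 9 genes of p27 and p21 turnover, 1 was called, beside 35.6% of all genes in either direction and 18.7% higher in CD34lo. It was Skp2, the substrate receptor for p27 (log2 fold change -0.90, adjusted p = 0.0331 by edgeR). Its call was lost in 7 of 9 fits with a pool or library left out.

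Of 16 Polycomb and other regulators of the INK4 locus, 5 were higher in CD34lo, none was higher in CD34hi and 11 did not pass, beside 35.6% of all genes called and 18.7% higher in CD34lo. Id1, a repressor of p16, had 120, 89.7 and 104 CPM in CD34lo and 9.75, 10.5 and 11.0 CPM in CD34hi libraries (log2 fold change -3.33, adjusted p = 2.13e-06 by edgeR). Ets1, an activator of p16, had 45.0 ± 7.74 and 13.0 ± 3.88 CPM (log2 fold change -1.79, adjusted p = 0.000391 by edgeR). Cbx8 and Ezh2, both of Polycomb complexes, and Id3 were the others, with log2 fold changes of -1.33, -0.40 and -0.88. Ezh2 lost its call in all 9 fits that left out a pool or library (-0.46 to -0.31), and Cbx8 and Id3 in 1 each. Bmi1, the Polycomb gene best known for silencing Cdkn2a, had 21.1, 17.3 and 30.2 CPM in CD34lo and 21.8, 20.5 and 17.7 CPM in CD34hi libraries and was not called (log2 fold change -0.19, adjusted p = 0.501 by edgeR). In the list of SMADs, MIZ1 and KLF factors, which act on Cdkn2b and Cdkn1a, 1 of 10 was called, Cebpa (log2 fold change -1.16, adjusted p = 0.00012 by edgeR), beside 35.6% of all genes. With the replicate block, Smad3 (adjusted p = 0.0258) and Zbtb17 (adjusted p = 0.0259, both by edgeR), which encodes MIZ1, joined it as higher in CD34lo, and Cbx7 of the Polycomb list was called as higher in CD34hi.

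Of 21 proliferation genes, 5 were higher in CD34lo, none was higher in CD34hi and 16 did not pass, beside 18.7% of all genes higher in CD34lo. Mki67 had 14.1, 8.95 and 9.93 CPM in CD34lo and 4.29, 3.81 and 7.43 CPM in CD34hi libraries (log2 fold change -1.09, adjusted p = 0.0165 by edgeR). Cdk1, Rrm2, Tk1 and Pcna were the others (log2 fold changes -1.49, -1.16, -0.95 and -0.62). Under the replicate block, 6 genes of the list were higher in CD34lo and none in CD34hi, beside 20.9% and 19.6% of all genes. With a pool or a library left out, the call of Mki67 was lost in 5 of 9 fits, that of Cdk1 in 6, that of Tk1 in 5 and those of Rrm2 and Pcna in 1 each, and the values ranged from -1.51 to -0.72 for Mki67 and from -2.12 to -1.06 for Cdk1. Of 14 genes associated with senescence, 7 were higher in CD34lo, 1 was higher in CD34hi and 6 did not pass. Over all genes these shares were 18.7% and 16.9%. With the replicate block, 9 were higher in CD34lo and 2 in CD34hi (20.9% and 19.6% of all genes), where Ccl2 joined Lmnb1 with a log2 fold change of 1.24 (adjusted p = 4.5e-05 by edgeR with the block, and 0.0897 without it). Several of them are also matrix or wound genes of fibroblasts. Among those higher in CD34lo were Lrrc15 (-3.34), Cxcl14 (-3.07), Igfbp7 (-2.53) and Gdf15 (-2.35), with smaller log2 fold changes for Mmp3 (-1.71) and Wnt9a (-0.57). Of these, the paper reported Lrrc15 and Cxcl14 as higher in CD34-negative than in CD34-positive fibroblasts of tumors. It reported Wnt9a as confined to the myofibroblastic ones. The list thus holds genes already tied to low CD34 in tumors, and its count is not independent of those reports. Lmnb1, the lamin whose loss marks senescent cells, had 16.3 ± 6.31 CPM in CD34lo and 41.6 ± 9.78 CPM in CD34hi libraries (log2 fold change 1.35, adjusted p = 0.00692 by edgeR), and Il6 had 266 ± 117 and 281 ± 107 CPM (log2 fold change 0.08, adjusted p = 0.893 by edgeR). The lists were chosen with earlier results of these data known, and no test of a list as a whole was made.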

How the data were processed

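PolyA RNA of the 6 libraries was prepared with TruSeq RNA v2 and sequenced on a NextSeq 500. The authors used Rsubread 2.2.6 and the GRCm38/mm10 genome, and the deposited values are raw counts for each gene. Annotation, strand setting and treatment of multi-mapping reads are not given in the sources used here, and the kit does not mark strand. Symbols were matched to 25275 of 27179 gene identifiers.

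The counts were analysed with edgeR 4.0.16 in R 4.3.3 (filterByExpr, TMM, quasi-likelihood test of CD34hi against CD34lo), with Benjamini-Hochberg adjustment over the 15219 genes kept and a threshold of 0.05; the script was tested on simulated data. Standard errors were derived from the F statistic. An exact permutation test of 3 against 3 libraries cannot go below p = 0.1 and was not used. Pairing comes from the shared mouse pool. Libraries of the same pool deviated from the means of their populations with r = 0.279, 0.0844 and 0.243 across genes. For libraries of different pools r was between -0.279 and 0.0681, so that pool 2 was hardly above this range. The study's methods name no pool term, so the block is an alternative.

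The alternatives were limma-voom (limma 3.58.1), DESeq2 1.42.0, RLE and upper-quartile scaling, omission of the filter or a minimum of 10 counts in all libraries, the replicate block with either tool, thinning of counts, omission of each pool or library, and stricter thresholds. Promoter windows came from RefSeq on GRCm38.p6 (6 of 7 members matched).

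The text names the members, their neighbours on the chromosome, the 3 closest genes by correlation, all genes of lists of 5 or fewer, and of longer lists the first 5 called genes by size of change with the same direction in all pools. Cdk2, Trp53, Mdm2, Ccng1, Bmi1, Mmp3, Wnt9a, Lmnb1, Ccl2, Smad3, Zbtb17, Cbx7 and Il6, and the marker sums without Acta2 or Fcgr2b, were added with their values seen. Results for some genes of the lists are left out of the text. The members and lists were chosen with earlier results of these data known.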

Additional observations from a re-analysis of the deposited data

How the results depend on the processing

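Across 18 alternatives, Cdkn2a (17 of them) and Cdkn2b kept their calls in all that gave a value, with log2 fold changes of -4.67 to -4.06 and -3.29 to -2.75, and Cdkn2d was called in none (-0.50 to -0.15). Cdkn2a gave no value with at least 10 counts in every library. Of 125 comparisons for the members, 113 kept direction and side of the threshold and none reversed. The replicate block, which pairs libraries of a pool, changed no member call but that of Cdkn1a (0.47 in edgeR, adjusted p = 0.0234, and 0.47 in limma-voom, adjusted p = 0.0146). With a pool or a library left out, log2 fold changes were 0.32 to 0.65 for Cdkn1a (called without the CD34lo library of pool 2), -0.44 to -0.12 for Cdkn1b (called without that of pool 1), -0.94 to -0.42 for Cdkn1c and -1.32 to -0.88 for Cdkn2c (lost without pool 2). The counts of calls in those fits were 3475 to 5154 genes (3475 without pool 1 and 3580 without pool 2, from 5411), 3 to 5 members and 25 to 47 pathway genes (25 without pool 1, from 40). At an adjusted p-value under 0.01, 3444 genes and 2 members were called, and, as a separate setting at a threshold of 0.05, with a log2 change of 1 or more in size, 2986 genes and 25 pathway genes. Without division by length the INK4 share was 4.67% in CD34lo and 2.27% in CD34hi. The replicate block raised the pathway calls to 38 genes higher in CD34lo and 13 in CD34hi, beside 20.9% and 19.6% of all genes. Of 773 comparisons for 43 named pathway genes, 77 lost the call and 5 reversed, all of genes not called: Ccnd3 with upper-quartile scaling (-0.021), without pool 2 (-0.16) and without its CD34lo (-0.098) or CD34hi library (-0.036), and Rb1 without the CD34lo library of pool 3 (0.020). With a pool or library left out, these lay between -0.16 and 0.23 for Ccnd3 and between -0.31 and 0.020 for Rb1. Fits without a library leave its population with 2. The cause of these shifts was not tested. Depth limits Cdkn2a most, with 1 to 3 counts in each CD34hi library.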
